A study of Mus musculus with 49 samples.

Results

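The Usp17l and Tdpoz genes are multicopy families that are switched on in the 2-cell mouse embryo. Their 10 named copies (Usp17la, Usp17lb, Usp17lc, Usp17ld and Usp17le, and Tdpoz1 to Tdpoz5) were taken from the 54838 gene rows of the count tables by matching the Ensembl identifiers to GENCODE symbols on GRCm38. All 10 were found, and each passed the limit for testing in both experiments, at least 1 read in 25% of embryos.

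Usp17l genes code for ubiquitin-specific proteases of the DUB subfamily, which remove ubiquitin from other proteins. They were first described as early response genes of cytokine-stimulated blood cells. Their older names are Dub1 for Usp17la, Dub1a for Usp17lb, Dub2 for Usp17lc, Dub2a for Usp17ld and Dub3 for Usp17le. Tdpoz genes code for proteins with a TRAF-like domain and a POZ (BTB) domain, the layout of SPOP, an adaptor that brings substrates to the CUL3 ubiquitin ligase. Copies of both families lie in tandem arrays, and both are known among the genes of the major wave of zygotic genome activation in the late 2-cell embryo.

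Single late 2-cell embryos, given as F1(C57BL/6JxCBA/H) in the labels and as offspring of F1 females and F1 males in the methods, were profiled with Smart-seq+5', a method that also captures the 5' ends of transcripts, and only reads from 5' ends were counted. Zygotes taken at 17 to 18 h post-hCG were injected with an antibody, cultured for 4 h and injected with mRNA of mCherry-Trim21, so that TRIM21 sends the antibody-bound protein to the proteasome (Trim-Away). They were collected at 48 h post-hCG. The antibody was against TBP (TBP LOF, a mouse monoclonal, 9 embryos passing quality limits of 9), mouse IgG (mIgG CONTROL, 9 of 10), an antibody against FOXJ3 (FOXJ3 LOF, a rabbit polyclonal, 16 of 17) or rabbit IgG (rIgG CONTROL, 13 of 13). The labels give these groups, whereas the study's methods give the collected numbers of TBP LOF and mIgG CONTROL embryos the other way round. All 4 groups therefore carried an antibody and Trim21. Each embryo was profiled whole, so that a change in both blastomeres and a change in a single blastomere cannot be told apart. TBP binds the TATA box and nucleates the pre-initiation complex of RNA polymerase II, and FOXJ3 is a forkhead factor. The FOXJ3 embryos were processed in batch 1 (9 LOF, 7 CONTROL) and batch 2 (7 LOF, 6 CONTROL).

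The 47 embryos that passed had between 1103570 and 5434810 counted reads and between 13736 and 18004 detected genes. ERCC spike-in transcripts took 4.29% ± 1.19 (SD, n = 9) of the reads in TBP LOF and 2.76% ± 0.372 (SD, n = 9) in mIgG CONTROL embryos. Over all tested genes the median log2 fold change was -0.70 with the TBP embryos scaled to the spike-ins, and with TMM scaling, which assumes that most genes do not change, it was 0.13. Both scales are therefore given for TBP LOF, the first as the main one. Tbp mRNA fell in TBP LOF (338 ± 149 to 77.0 ± 50.8 normalized counts, n = 9 each, log2 fold change -2.14, SE 0.37, edgeR adjusted p = 5.3e-06), while Foxj3 mRNA did not pass the test in FOXJ3 LOF (log2 fold change 0.28, SE 0.13, edgeR adjusted p = 0.86). Trim-Away acts on protein, so these mRNA values do not measure depletion. The paper shows depletion of both proteins by immunostaining. All 6 late 2-cell markers and all 8 oocyte markers had reads in each group. Fshr and Inhba, 2 of 9 cumulus markers, were at 0 in every group, and the summed cumulus level never exceeded 24.9 RPM (a library's reads scaled to its total, the usual depth-scaled count).

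The Usp17l array spans 1612931 bases of chromosome 7 (GRCm38, chr7:103249737-104862667) and falls into a pair of clumps. Usp17ld (chr7:103249737-103252505, minus strand) and Usp17lc (chr7:103415072-103419880, plus strand) form the first. Usp17le (chr7:104768049-104777470, minus), Usp17lb (chr7:104840257-104842603, minus) and Usp17la (chr7:104857009-104862667, plus) form the second, and 106 of the 163 other annotated genes within 250000 bases of the array are olfactory receptor genes. The Tdpoz array is denser, at 309773 bases of chromosome 3 (chr3:93651542-93961314), and 29 of the 43 other annotated genes within 250000 bases of it are pseudogenes. In order along the chromosome it holds Tdpoz2 (chr3:93651542-93652686, minus), Tdpoz1 (chr3:93669333-93676310, minus), Tdpoz4 (chr3:93796398-93797510, plus), Tdpoz3 (chr3:93826020-93827117, plus) and Tdpoz5 (chr3:93960292-93961314, minus).

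The start regions of the copies are shown first, because TBP is the factor that was depleted and because they show how closely the copies resemble each other. RefSeq windows of 300 bases (250 before and 50 after the annotated start, GRCm38.p6) were found for 7 of the 10 copies, those of Usp17la, Usp17lb, Usp17lc, Usp17ld, Tdpoz1, Tdpoz4 and Tdpoz5. They were searched on both strands for TATAAA, the core of the classical TATA box, for TATATAA, a variant of it, and for GTAAACA, a core of forkhead sites. TATAAA lay on the gene strand in 3 Usp17l windows, 31 bases before the start of Usp17lb, 88 before that of Usp17lc and 110 before that of Usp17ld. Of all 32851 windows, 13.6% held TATAAA on either strand and 2.65% held it on the gene strand 60 to 10 bases before the start. Of the 3 Usp17l matches, only that of Usp17lb lay in this range. Distances here and below count from RefSeq starts, which for Usp17lb, Usp17lc and Tdpoz1 differ from the starts of the GENCODE genes given above. In Usp17lc the TATAAA lies inside the GENCODE gene. The window of Usp17lc (chr7:103416446-103416745, plus strand), with TATAAA in capitals, is given in full because this copy carries the main result below.
Usp17lc: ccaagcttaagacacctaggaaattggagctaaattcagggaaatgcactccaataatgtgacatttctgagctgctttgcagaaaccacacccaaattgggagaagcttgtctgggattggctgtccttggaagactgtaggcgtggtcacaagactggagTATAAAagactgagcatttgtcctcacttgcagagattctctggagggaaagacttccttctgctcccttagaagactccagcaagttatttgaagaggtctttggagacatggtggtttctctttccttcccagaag

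Around this TATAAA the Usp17l copies can be laid side by side without gaps over 81 bases. Capitals mark the 6 bases at the position of TATAAA. The stretches lie at chr7:103416573-103416653 (plus strand, Usp17lc), chr7:103252570-103252650 (minus, Usp17ld), chr7:104842569-104842649 (minus, Usp17lb) and chr7:104856935-104857015 (plus, Usp17la).
Usp17lc: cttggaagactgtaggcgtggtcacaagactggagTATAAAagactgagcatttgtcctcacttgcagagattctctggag
Usp17ld: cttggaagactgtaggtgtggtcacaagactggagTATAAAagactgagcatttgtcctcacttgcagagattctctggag
Usp17lb: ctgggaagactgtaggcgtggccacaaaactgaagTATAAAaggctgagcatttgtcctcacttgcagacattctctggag
Usp17la: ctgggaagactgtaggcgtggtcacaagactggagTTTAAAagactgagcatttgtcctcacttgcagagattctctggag

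Against Usp17lc, the stretch of Usp17ld differed at 1 position, that of Usp17la at 2 and that of Usp17lb at 6. Of the Usp17la differences, 1 falls inside the capitals, and the Usp17la window held none of the searched motifs. The Tdpoz1 window (chr3:93676234-93676533, minus strand) held no TATAAA but TATATAA, 60 bases before the start, a motif that 3.24% of all windows held on either strand. The windows of Tdpoz4 and Tdpoz5 held none of the searched motifs, and GTAAACA was found in no window of either family (3.65% of all windows held it). A match or its absence describes these letters in these windows and says nothing about binding.
Tdpoz1: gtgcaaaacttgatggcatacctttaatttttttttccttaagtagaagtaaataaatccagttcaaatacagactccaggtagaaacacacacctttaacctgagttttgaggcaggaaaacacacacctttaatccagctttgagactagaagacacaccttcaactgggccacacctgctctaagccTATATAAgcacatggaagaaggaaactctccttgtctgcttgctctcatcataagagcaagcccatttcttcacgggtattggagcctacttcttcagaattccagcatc

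The coding sequences of the Usp17l copies were 90.7% to 98.4% identical over the 10 pairs (median 93.4%), with Usp17lc and Usp17ld the closest pair. They code for between 468 (Usp17lb) and 545 codons (Usp17lc and Usp17ld), the stop codon not counted. The Tdpoz copies, of 340 to 370 codons, had diverged further, at 78.8% to 88.4% (median 83.3%). This bears on the counts, since a read of 150 bases, the length in the labels, can be assigned to a copy only where it differs from the others. Of the 150-base windows in the first 300 bases of the longest annotated transcript, 0% were shared with another gene for Usp17la, Usp17lb and Usp17le. The share was 85.4% for Usp17lc and 100% for Usp17ld, in each case with the other of these 2 genes only. In the Tdpoz family no such window was shared between named copies, but 12.6% of those of Tdpoz1 were shared with Gm9117, 18.5% of those of Tdpoz3 with Gm4982, 15.2% of those of Tdpoz4 with Gm4858 and Gm5541, and all of those of Tdpoz5 with Gm10697, Gm37596 and Gm5543. For 50-base windows of the same first bases the shares were 68.5% for Tdpoz1, 50.6% for Tdpoz2, 67.3% for Tdpoz3 and 66.9% for Tdpoz4. They were 13.5% for Usp17la, 23.9% for Usp17lb and 27.9% for Usp17le. None of the sources used says how reads that fit several places were assigned. Usp17lc against Usp17ld, and Tdpoz5, are therefore uncertain as single copies, as to a lesser extent are the others. The family sums are given throughout. The Usp17l sum holds both Usp17lc and Usp17ld. The genes that share these windows with Tdpoz copies lie outside the Tdpoz sum, so the sum carries the same uncertainty.

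Among the named copies, a single one supplied most of the reads in each family, and the family sums and shares given here cover these named copies only. Usp17lb took 85.3% and Usp17lc 10.2% of the reads of the 5 Usp17l copies over the 47 embryos, and the other 3 copies together the rest, at 2.45% (Usp17la), 1.15% (Usp17ld) and 0.90% (Usp17le). Tdpoz1 took 78.2% and Tdpoz4 11.6% of the reads of the 5 Tdpoz copies, Tdpoz5 4.56%, Tdpoz2 3.32% and Tdpoz3 2.32%. RefSeq names further Tdpoz genes outside this set, found after the values were seen, which GENCODE lists as Gm9125 (Tdpoz9, 7697 reads over the 47 embryos), Gm4858 (Tdpoz8, 5613 reads) and Gm10697 (Tdpoz7, 802 reads). The 5 named copies together had 874 reads in TBP LOF, 1256 in mIgG CONTROL, 1804 in FOXJ3 LOF and 1334 in rIgG CONTROL embryos, so that Gm9125 and Gm4858 each had more reads than all of them, and Tdpoz1 was not the most read Tdpoz gene.

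**Figure D1:**
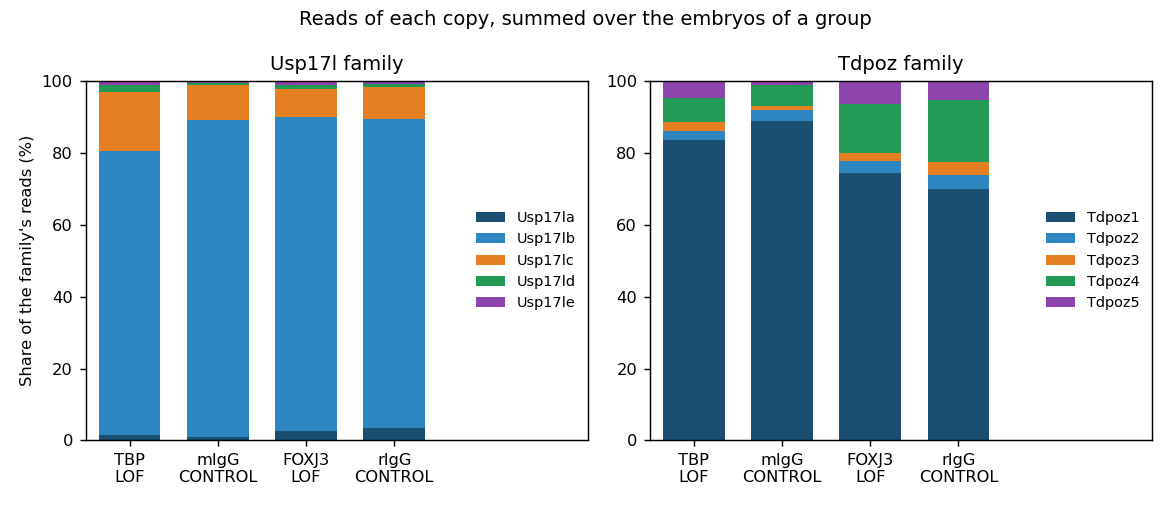
Share of the reads of each family's 5 named copies (vertical axis, percent) assigned to each copy, summed over the embryos of a group that passed quality limits (TBP LOF 9, mIgG CONTROL 9, FOXJ3 LOF 16, rIgG CONTROL 13). Usp17lc makes up 16.4% of the Usp17l reads in TBP LOF and between 7.74% and 9.82% in the other groups, and Tdpoz4 makes up more in the FOXJ3 experiment than in the TBP experiment.

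Embryos differed in this mixture, more so for Tdpoz. The share of Tdpoz1 among the Tdpoz reads of an embryo ran from 20% (FOXJ3 LOF batch 1 embryo 6) over a median of 77.6% to 96.2% (TBP LOF embryo 11). That of Tdpoz4 reached 60.8% in FOXJ3 LOF batch 1 embryo 10 and 57.6% in rIgG CONTROL batch 2 embryo 3, embryos of both FOXJ3 experiment groups. The share of Usp17lb lay between 44.4% and 100% (median 87.1%). Its lowest value came from TBP LOF embryo 9, in which Usp17lc took 52.9%, and its highest from FOXJ3 LOF batch 1 embryo 2, where no other Usp17l copy had a read. Shares of embryos with few family reads are coarse.

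Per kilobase of exon, the order of the mean levels began with Usp17lb in all 4 groups. In mIgG CONTROL its mean was 81.5 ± 55.5 RPM per kb (SD, n = 9), followed by Tdpoz1 with 21.7 ± 14.2, Usp17lc with 5.34 ± 5.06 and Tdpoz4 with 3.41 ± 1.44. In rIgG CONTROL it was 162 ± 59.9 RPM per kb (SD, n = 13), followed by Tdpoz1 with 15.002 ± 8.29, Usp17lc with 11.01 ± 9.34 and Tdpoz4 with 8.35 ± 6.11. Usp17lb stood clear of the next copy by more than its SD in both CONTROL groups, whereas the means of Usp17lc and Tdpoz4 differed by less than the SD of Usp17lc. The remaining 6 copies had means between 0.28 and 3.9 RPM per kb in the CONTROL groups. Reads came from 5' ends only, so that a value per kilobase is an approximate scale for comparing genes.

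**Figure D2:**
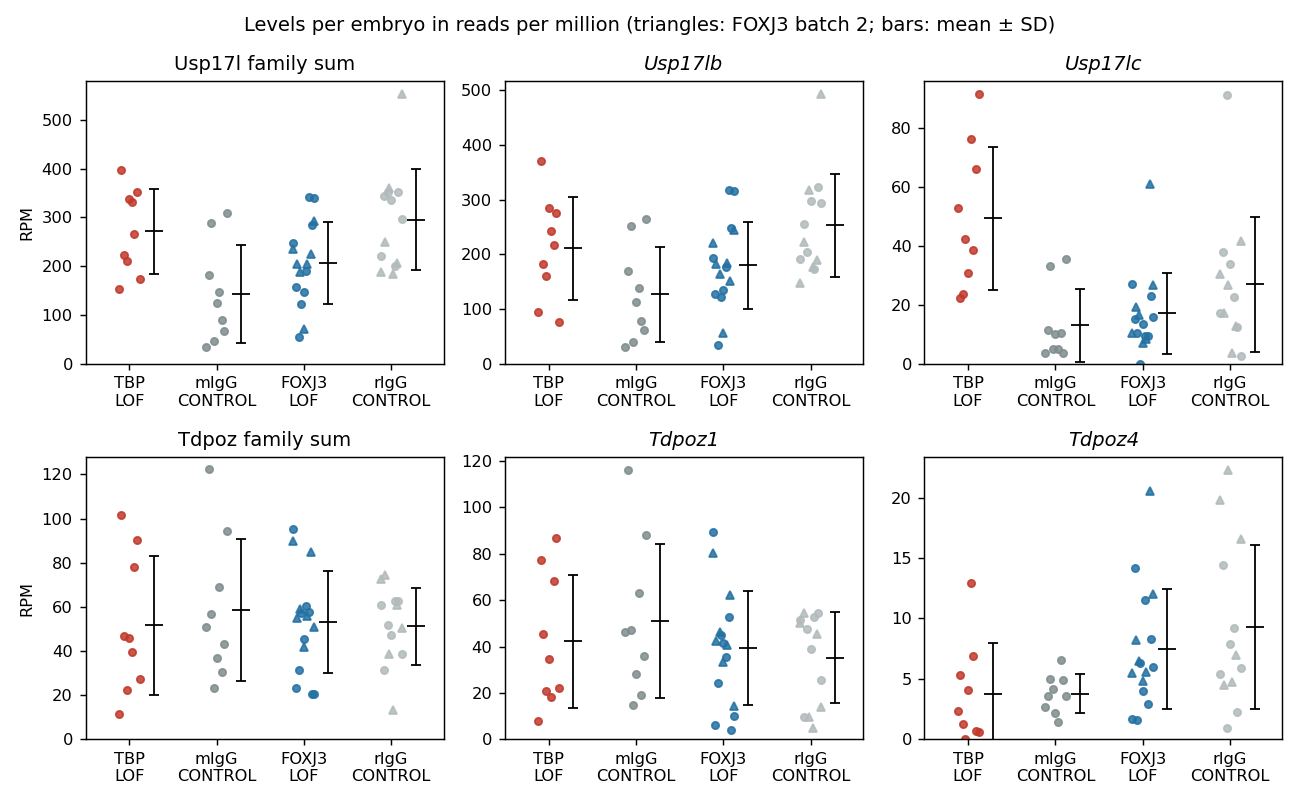
Level per embryo in RPM (linear axis from 0) of both family sums and 4 named copies with many reads in the 4 groups; points are embryos (triangles, FOXJ3 batch 2) and the black bars give the mean and SD. The Usp17l sum has its lowest mean in mIgG CONTROL (143 RPM) and its highest in rIgG CONTROL (295 RPM), whereas the means of the Tdpoz sum lie between 51.2 and 58.6 RPM.

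On the RPM scale, a share of the library, the Usp17l sum of the mIgG CONTROL embryos had a lowest value of 34.7, a median of 124 and a highest of 308 RPM. The rIgG CONTROL embryos had 184, 296 and 553 RPM, in a separate experiment with other libraries. The groups overlapped. The Tdpoz sum had 23.4, 50.8 and 122 RPM in mIgG CONTROL and 13.3, 51.9 and 74.4 RPM in rIgG CONTROL.

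The TBP comparison asked how the families responded to a depletion of TBP begun in the zygote. Usp17lc, the second Usp17l copy by reads, rose in TBP LOF. Its ERCC-normalized count had a lowest value of 6.74, a median of 23.3 and a highest of 71.8 in mIgG CONTROL, and of 22.2, 77.0 and 151 in TBP LOF. The groups overlapped, with 8 of 9 TBP LOF embryos above the CONTROL median and 5 above the highest CONTROL embryo. The means were 28.1 ± 24.0 and 75.3 ± 45.2 (SD, n = 9 each). The fitted log2 fold change was 1.38, or 2.59-fold (SE 0.40, edgeR quasi-likelihood adjusted p = 0.0052). It was the 1 copy of 10 past the threshold on this scale, where 1.4% of all tested genes were higher and 29.8% lower.

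**Figure D3:**
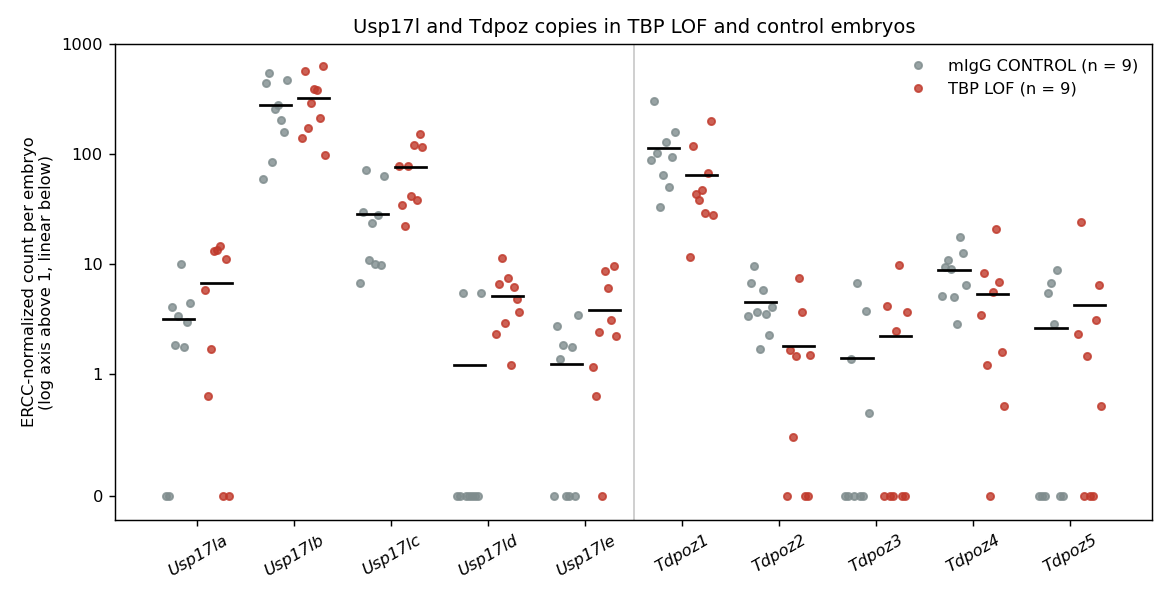
ERCC-normalized count (vertical axis, logarithmic above 1 and linear below) of the 10 copies in each of the 9 mIgG CONTROL (grey) and 9 TBP LOF (red) embryos; black lines are group means. Usp17lc is higher in TBP LOF, Usp17ld has a read in all 9 TBP LOF but in 2 of 9 mIgG CONTROL embryos, 7 of 9 TBP LOF embryos lie below the lowest mIgG CONTROL embryo for Tdpoz2, and the groups overlap for every copy.

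Usp17lb, the Usp17l copy with the most reads, did not pass the test. It had 59.0, 258 and 543 normalized counts as lowest, median and highest value in mIgG CONTROL and 96.7, 290 and 629 in TBP LOF, with 5 of 9 TBP LOF embryos above the CONTROL median. Its log2 fold change was 0.20 (SE 0.35, 95% interval -0.50 to 0.89, edgeR adjusted p = 0.73). Usp17ld, the closest relative of Usp17lc, was at 0 in 7 mIgG CONTROL embryos and at 5.42 and 5.43 normalized counts in the other 2, while the 9 TBP LOF embryos had between 1.21 and 11.3 (median 4.76). Its log2 fold change of 1.76 (SE 0.77) missed the threshold (edgeR adjusted p = 0.076) and passed it without mIgG CONTROL embryo 2 (2.17, edgeR adjusted p = 0.035) or embryo 9 (2.74, edgeR adjusted p = 0.0145), the 2 with reads. Leaving out either of them takes away CONTROL reads, which raises the fold change, so these passes are no separate support. Usp17ld also reached the limit for testing through its reads in TBP LOF. The threshold was also missed by Usp17le (1.42, SE 0.82, edgeR adjusted p = 0.20) and by Usp17la (0.97, SE 0.74, edgeR adjusted p = 0.35). Apart from Usp17ld, the Usp17l fold changes were above 0 as well, from 0.20 (Usp17lb) to 1.42 (Usp17le), beside a median of -0.70 for all genes. The family sum, in which Usp17lb weighs most, had 65.7, 284 and 626 normalized counts in mIgG CONTROL and 210, 383 and 805 in TBP LOF, a log2 fold change of 0.39 (SE 0.34, 95% interval -0.28 to 1.07).

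The Tdpoz copies gave no call on this scale. Tdpoz1 had 32.5, 92.7 and 304 normalized counts in mIgG CONTROL and 11.5, 42.7 and 198 in TBP LOF. Of the TBP LOF embryos 7 of 9 lay below the CONTROL median and 3 below the lowest CONTROL embryo. The log2 fold change was -0.83 (SE 0.38, edgeR adjusted p = 0.093), close to the median of all genes. It passed the threshold without TBP LOF embryo 8 (-1.24, edgeR adjusted p = 0.0070), the embryo with the highest Tdpoz1 count of its group, and without TBP LOF embryo 10, the next highest (edgeR adjusted p = 0.045). Without mIgG CONTROL embryo 10, the highest CONTROL embryo, it was -0.51 (edgeR adjusted p = 0.35), the other end of the range over the 18 embryos left out in turn. Tdpoz2 had a read in 9 of 9 mIgG CONTROL and 6 of 9 TBP LOF embryos, and 7 of the 9 TBP LOF embryos lay below the lowest CONTROL embryo (-1.25, SE 0.76, edgeR adjusted p = 0.22). Leaving out each embryo in turn gave -2.01 (without TBP LOF embryo 5, the highest of its group) to -1.04, with edgeR adjusted p from 0.060 to 0.36. Tdpoz4 had a read in 9 and 8 (-0.72, SE 0.61, edgeR adjusted p = 0.41). Tdpoz3 and Tdpoz5, with 34 and 56 reads in all embryos of the experiment, had log2 fold changes of 0.60 (SE 0.98) and 0.79 (SE 0.91), and both fell below 0 when TBP LOF embryo 6 or TBP LOF embryo 10, their respective highest embryos, was left out (-0.069 and -0.58). The Tdpoz sum had 50.6, 111 and 320 normalized counts in mIgG CONTROL and 17.2, 62.4 and 206 in TBP LOF, a log2 fold change of -0.75 (SE 0.36, 95% interval -1.47 to -0.040). The median of all genes, -0.70, lies inside this interval.

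With TMM scaling, which compares a gene with the rest of the library, 4 of the 5 Usp17l copies were called higher, 3 of them without Usp17ld, and no Tdpoz copy was called. On that scale 13.2% of all tested genes were higher and 12.9% lower. Usp17ld, which reached the limit for testing through its reads in TBP LOF (2 of 9 mIgG CONTROL embryos had a read), so that its call is no separate support, had a log2 fold change of 2.69 (SE 0.76, edgeR adjusted p = 0.0088). The other called copies were Usp17le with 2.16 (SE 0.76, edgeR adjusted p = 0.034), Usp17lc with 2.08 (SE 0.40, edgeR adjusted p = 2.3e-04) and Usp17lb with 0.92 (SE 0.33, edgeR adjusted p = 0.036). All 9 TBP LOF embryos were above the CONTROL median of the Usp17l sum (log2 fold change 1.13, SE 0.31). Tdpoz1 was at -0.0068 (SE 0.36, edgeR adjusted p = 0.99) and the Tdpoz sum at 0.058 (SE 0.32).

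Sums of other transcripts differed between the groups as well on the RPM scale, a share of the library. The summed late 2-cell markers ran from 384 to 1161 (median 935) in TBP LOF and from 143 to 571 (median 225) in mIgG CONTROL. The summed oocyte and egg markers ran from 1907 to 3428 (median 2681) and from 792 to 2387 (median 1395). Their part in the values of the Usp17l copies was not tested.

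**Figure D4:**
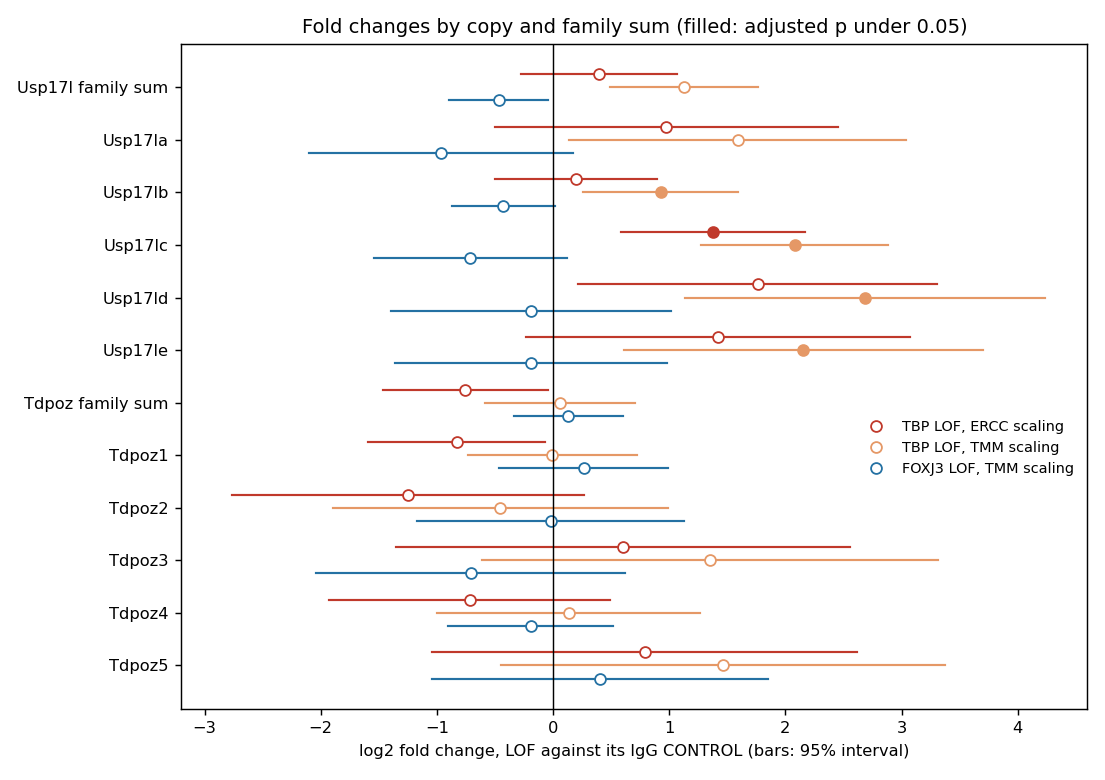
Log2 fold change of LOF against its IgG CONTROL (horizontal axis) for the 10 copies and both family sums, with 95% intervals; red, TBP LOF with ERCC scaling, orange, TBP LOF with TMM scaling, blue, FOXJ3 LOF with TMM scaling, filled where the edgeR adjusted p was under 0.05 (family sums were not tested). Usp17lc is filled on both TBP scales, Usp17lb, Usp17ld and Usp17le on the TMM scale, and no FOXJ3 point is filled. Usp17ld reached the limit for testing in the TBP experiment through its reads in TBP LOF.

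After FOXJ3 loss no copy passed the threshold, in a comparison where 0.0107% of all tested genes were lower and 0.0% higher. Usp17lb had 291, 483 and 1028 normalized counts in rIgG CONTROL and 64.2, 370 and 742 in FOXJ3 LOF, with 12 of 16 FOXJ3 LOF embryos below the CONTROL median (log2 fold change -0.43, SE 0.22, edgeR adjusted p = 0.88). Usp17lc had 4.31, 38.4 and 215 and then 0, 27.9 and 130 (-0.71, SE 0.41, edgeR adjusted p = 0.91). All 5 Usp17l fold changes were below 0, from -0.96 (Usp17la) to -0.19 (Usp17le), with a median of -0.43 beside -0.027 for all genes. Usp17ld and Usp17le were above 0 with ERCC scaling (0.043 and 0.036) and in batch 2 alone (0.10 and 0.45). None of the 10 copies had an unadjusted edgeR p under 0.05, and 1 had with DESeq2, where no copy was called either. The Usp17l sum had 338, 520 and 1153 normalized counts in rIgG CONTROL and 104, 436 and 796 in FOXJ3 LOF, a log2 fold change of -0.47 (SE 0.21, 95% interval -0.89 to -0.047). Within batch 1 it was -0.49 (SE 0.29) and within batch 2 -0.47 (SE 0.25). With ERCC scaling it was -0.29 (SE 0.27) and its interval held 0.

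Within batches, Usp17lc had a log2 fold change of -1.29 (SE 0.54, edgeR adjusted p = 0.53) in batch 1 and of -0.029 (SE 0.46, edgeR adjusted p = 1.0) in batch 2. In batch 1 its highest value, 215 normalized counts, came from rIgG CONTROL batch 1 embryo 3, which also had the highest Usp17la count (114), and rIgG CONTROL batch 1 embryo 2 followed it for Usp17la with 82.6. The Tdpoz sum had 26.6, 106 and 170 normalized counts in rIgG CONTROL and 36.2, 115 and 200.5 in FOXJ3 LOF, a log2 fold change of 0.13 (SE 0.23, 95% interval -0.34 to 0.60). Tdpoz1 had 10.1, 80.7 and 118 in rIgG CONTROL and 8.56, 86.4 and 185 in FOXJ3 LOF (0.26, SE 0.36, edgeR adjusted p = 0.97), at -0.13 (SE 0.45) in batch 1 and 0.73 (SE 0.43) in batch 2. The other 4 Tdpoz copies lay between -0.71 (Tdpoz3) and 0.41 (Tdpoz5).

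The effects of both losses were compared in a fit of all 47 embryos with TMM scaling, each LOF group against its own CONTROL. The TBP LOF effect exceeded the FOXJ3 LOF effect for Usp17lc by 2.81 on the log2 scale (SE 0.65, edgeR adjusted p = 0.0015), for Usp17ld by 2.90 (SE 1.01, edgeR adjusted p = 0.033) and for Usp17lb by 1.36 (SE 0.41, edgeR adjusted p = 0.013). Of all tested genes 10.9% were called in that direction and 11.2% in the other. In RPM, the mean of Usp17lb was 127 in mIgG CONTROL and 211 in TBP LOF, and 253 in rIgG CONTROL and 180 in FOXJ3 LOF. In the same order the means were 13.1, 49.3, 27.0 and 17.1 for Usp17lc and 0.62, 4.09, 2.86 and 2.46 for Usp17ld. For each of these copies mIgG CONTROL had the lowest mean of the groups. Usp17la (2.56, SE 0.98, edgeR adjusted p = 0.052) and Usp17le (2.36, SE 0.96, edgeR adjusted p = 0.069) missed the threshold, which Usp17la passed after filtering by filterByExpr (edgeR adjusted p = 0.032). Of the Tdpoz copies none was called, with differences from -0.43 (Tdpoz2) to 2.09 (Tdpoz3, SE 1.17, edgeR adjusted p = 0.20). The difference of the family sums was 1.60 (SE 0.39, 95% interval 0.82 to 2.38) for Usp17l and -0.050 (SE 0.41, 95% interval -0.87 to 0.77) for Tdpoz. With ERCC scaling of all embryos, Usp17lc was the 1 copy called (1.88, SE 0.66, edgeR adjusted p = 0.024), where 0.954% of all tested genes were called in that direction and 28.2% in the other. Usp17lb (0.44, SE 0.47, edgeR adjusted p = 0.54) and Usp17ld (1.70, SE 1.02, edgeR adjusted p = 0.22) lost their calls on that scale. The difference of the sums was then 0.67 (95% interval -0.24 to 1.58) for Usp17l, an interval that held 0, and -1.02 (95% interval -1.96 to -0.080) for Tdpoz. On that scale the median difference over all tested genes was -0.88, which lies inside the Tdpoz interval and below that of Usp17l.

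The spread between embryos of the same group depended on the copy. The coefficient of variation of the Usp17l sum was 63.5% in mIgG CONTROL and 38.7% in rIgG CONTROL, and that of the Tdpoz sum 60.6% and 37.1%. Values of the TBP experiment rest here on ERCC scaling and those of the FOXJ3 experiment on TMM, so they share no common scale. With ERCC scaling the rIgG CONTROL sums were 580 ± 293 (Usp17l) and 100 ± 56.1 (Tdpoz), against 589 ± 228 and 102 ± 37.8 with TMM (mean ± SD). edgeR's biological coefficient of variation, which leaves out counting noise, was 0.52 for Usp17lb, 0.560 for Usp17lc and 0.555 for Tdpoz1 in the TBP experiment. Among genes with reads within a factor of 1.5 of theirs, 95.5%, 94.5% and 96.3% had lower values. In the FOXJ3 experiment the corresponding values were 0.42, 0.73 and 0.65, above 86.7%, 98.0% and 98.4% of genes with like reads, and Usp17la and Tdpoz5 stood above 98.1% and 99.1%. Some copies were not high for their reads. In the TBP and FOXJ3 experiments Tdpoz2 stood above 28.1% and 39.1% of such genes and Tdpoz4 above 49.9% and 65.2%, and Usp17le above 49.3% and 72.1%.

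Over the 47 embryos, on log2(RPM + 1) with the mean of each group and batch taken out, the 10 pairs of Usp17l copies had Pearson correlations between 0.12 and 0.55, the highest for Usp17ld and Usp17le. The 10 pairs of Tdpoz copies lay between -0.32 and 0.53, 4 of them above 0, and the 25 pairs across the families between -0.31 and 0.42 (median 0.13), 16 of them above 0, the highest for Usp17le and Tdpoz2. Points share a library, and copies that share reads share them here as well.

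The genes most like the Usp17l sum on this measure, among 9165 genes with a mean of at least 5 RPM, were Gm2016 (r = 0.64), Gm11756 (0.62), Pramef25 (0.61), Gm14742 (0.61) and Gm10696 (0.61). Gm2016 and Pramef25 are 2-cell genes of the list below, and Gm10696 lies within 250000 bases of the Tdpoz array. The sum of Zscan4a to Zscan4f, an array of telomere-linked 2-cell genes, had r = 0.53, with 32 genes above it, MT2_Mm, the LTR that drives many 2-cell transcripts, 0.48 and MERVL-int, the retrovirus it belongs to, 0.26. The Tdpoz sum was most like Gm21762 (0.68), AU019990 (0.64), D13Ertd608e (0.61), Gm38258 (0.59) and Gtf2f1 (0.58), a subunit of the general factor TFIIF. It had r = 0.48 with MT2_Mm, 0.36 with MERVL-int and 0.27 with the Zscan4 sum. The sums of both families had r = 0.37 with each other, and 293 genes were more like the Usp17l sum than the Tdpoz sum was. Depth, as log2 counted reads, had r = 0.11 with the Usp17l and 0.12 with the Tdpoz sum. These are correlations over embryos, given as a description.

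Beside the families, 27 of 29 listed 2-cell genes were in the table and tested. In TBP LOF with ERCC scaling 4 were higher and 2 lower (1.4% and 29.8% of all tested genes), with a median of 0.14 beside -0.70 for all genes. Tcstv3, a 2-cell gene linked to telomere length, rose (log2 fold change 1.77, SE 0.34, edgeR adjusted p = 4.1e-05), as did Gm5662 (1.86, SE 0.42, edgeR adjusted p = 3.4e-04) and Gm8300 (1.78, SE 0.47, edgeR adjusted p = 0.0023). Calcoco2, an autophagy receptor, fell (-3.03, SE 0.35, edgeR adjusted p = 2.3e-09), and Snai1, a zinc finger repressor, fell (-1.30, SE 0.30, edgeR adjusted p = 5.4e-04). With TMM scaling 10 were higher and 1 lower (13.2% and 12.9% of all tested genes), and in FOXJ3 LOF none was called. MT2_Mm did not pass the test with ERCC scaling (0.30, SE 0.36, edgeR adjusted p = 0.58) and did with TMM (1.04, SE 0.29, edgeR adjusted p = 0.0079). MERVL-int passed on neither scale (-0.13, SE 0.34, and 0.58, SE 0.26; edgeR adjusted p = 0.83 and 0.10).

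Among the other ubiquitin-specific proteases the calls depended on the scale. Of 48 tested genes named Usp and a number, 18 were lower and 1 was higher in TBP LOF with ERCC scaling (29.8% and 1.4% of all tested genes), with a median of -0.57 beside -0.70 for all genes. With TMM 7 were lower and 13 higher (12.9% and 13.2% of all tested genes). Usp29, which lies in the Peg3 imprinted region, fell by 3.93 on the log2 scale (SE 0.44, edgeR adjusted p = 1.0e-09). Usp36, a nucleolar protease, fell by 2.30 (SE 0.32, edgeR adjusted p = 8.3e-08) and Usp33 fell by 1.94 (SE 0.34, edgeR adjusted p = 6.7e-06). The gene that rose was Usp26, an X-linked protease of male germ cells (21.0 ± 24.1 against 2.59 ± 2.87 normalized counts, n = 9 each, log2 fold change 2.83, SE 0.72, edgeR adjusted p = 0.0016).

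For the CUL3 ligase, the machinery of SPOP-like adaptors, 8 of 17 listed genes were lower and none higher with ERCC scaling, where 29.8% of all tested genes were lower, and the median was -0.82 beside -0.70 for all genes. Nedd8, the modifier that activates cullins, fell by 1.45 on the log2 scale (SE 0.31, edgeR adjusted p = 1.9e-04). Klhl12 and Klhl21, a pair of other CUL3 adaptors, fell by 1.47 (SE 0.33, edgeR adjusted p = 3.1e-04) and by 1.34 (SE 0.31, edgeR adjusted p = 4.2e-04). With TMM scaling 1 was lower and 2 were higher (12.9% and 13.2% of all tested genes). In FOXJ3 LOF no gene of either ubiquitin list was called.

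Most neighbours of the Usp17l array had too few reads for a test. Around the Usp17l genes 14 of 163 could be tested, 4 were lower in TBP LOF and none higher with ERCC scaling, a share near the 29.8% of all tested genes that were lower, and 3 were lower and 1 higher with TMM (12.9% and 13.2% of all tested genes). The lincRNA Gm45556 fell from 18.3 ± 13.99 to 0.42 ± 1.05 normalized counts (n = 9 each, log2 fold change -5.64, SE 0.78, edgeR adjusted p = 9.7e-08). Trim6 fell from 54.4 ± 19.4 to 7.79 ± 6.99 (-2.85, SE 0.41, edgeR adjusted p = 2.3e-07), and Olfr665 had no read in TBP LOF and 1.90 ± 1.71 normalized counts in mIgG CONTROL. Olfr665 reached the limit for testing through its CONTROL reads alone, so its call is no separate support. Around the Tdpoz genes 20 of 43 could be tested. With ERCC scaling 1 was lower and none higher, where 29.8% and 1.4% of all tested genes were. Their median was -0.099 beside -0.70 for all genes. The 1 called lower was Tchh, the gene of trichohyalin (7.62 ± 7.74 in TBP LOF against 46.0 ± 14.9 in mIgG CONTROL, log2 fold change -2.68, SE 0.44, edgeR adjusted p = 2.4e-06). With TMM 1 was lower and 4 were higher (12.9% and 13.2% of all tested genes). The further Tdpoz genes Gm9125, Gm4858 and Gm10697 had log2 fold changes of -1.11 (SE 0.47), -0.57 (SE 0.44) and -0.087 (SE 0.54) in TBP LOF with ERCC scaling, none past the threshold, and the pseudogene Usp17le-ps had 0 reads in all 47 embryos.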

How the data were processed

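Smart-seq+5' libraries of single late 2-cell embryos were analysed from the deposited expected counts per gene and TE family. Per the study's methods, the authors checked reads with FASTQC, trimmed them with Trimmomatic, mapped them with STAR 2.7.11a to GRCm38 plus the mCherry-Trim21 construct, kept 5' reads and counted them with TEtranscripts. These estimated counts, deposited as whole numbers, are not normalized. None of the sources used names the multi-mapping mode. Members and lists were chosen with earlier results of these data known.

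Gene identifiers were matched to GENCODE M21 symbols (the authors used another release). Embryos with at least 500000 reads, 1000 genes, at most 10% mitochondrial and at most 15% ERCC reads were kept, which left 47 of 49. Groups came from the labels. edgeR 4.0.16 (R 4.3.3) quasi-likelihood tests were run on all genes and TE families with a read in at least 25% of embryos, with Benjamini-Hochberg adjustment over all of them and a threshold of 0.05. The study scaled TBP to ERCC without giving the formula; here median ratios over 42 ERCC transcripts were used. FOXJ3 was scaled by TMM with batch as a term. The difference of effects was fitted over all embryos with TMM. Normalized counts are counts over these factors, and RPM scales reads to the gene and TE total of the library. Family sums replaced their copies in a second fit and have no p-value. Intervals are 95%. The labels do not say which TBP embryos were collected together, so p-values measure the spread between embryos. The fits were tested on simulated data, in which only genes with more reads than most of these copies were changed. It held no overall shift of RNA. How well changes are found at the low counts of most copies was therefore not tested.

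Named were all members, of each list the 3 genes of smallest adjusted p per direction in the TBP comparison, and the 5 genes most like each sum. Gene rows of the per-locus tables held the same values as the main tables. Alternatives were another scaling, DESeq2 1.42.0, other filters, all embryos, each batch, further covariates, a replicate block and leaving out each embryo. The embryo numbers were not taken as pairs, since deviations of same-numbered embryos correlated over 0.1 in 2 of 7 TBP and 3 of 12 FOXJ3 pairs. Sequences came from RefSeq and GENCODE tables on GRCm38 and were handled in Python 3.11.15.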

Additional observations from a re-analysis of the deposited data

Results flagged for a closer look

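Single embryos stood far from the rest of their group in 7 of the 24 sets of normalized counts examined in the TBP experiment (12 copies and sums in 2 groups of 9), where chance flags about 1 in 20 sets by the limit's definition. The sets are not independent (Tdpoz1 is part of the Tdpoz sum) and many hold low counts, for which that rate was not tested. In mIgG CONTROL, embryo 10 had the highest Tdpoz1 count (304, next 157) and with it the highest Tdpoz sum (320, next 169), and embryo 5 had the highest Usp17la count (9.99, next 4.41). In TBP LOF, embryo 6 was highest for Tdpoz3 (9.66, next 4.10) and for Tdpoz4 (20.5, next 8.20). Embryo 5 was highest for Tdpoz2 (7.35, next 3.62) and embryo 10 for Tdpoz5 (23.8, next 6.35). Of these 7, 6 concern the Tdpoz family.

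The log2 TBP LOF effect differed from the FOXJ3 LOF effect in the test of the difference itself (edgeR, TMM scaling, where 10.9% of all tested genes were called in that direction) for Usp17lb (1.36, adjusted p = 0.013), Usp17lc (2.81, adjusted p = 0.0015) and Usp17ld (2.90, adjusted p = 0.033). With ERCC scaling Usp17lc remained called (1.88, adjusted p = 0.024), and Usp17lb (0.44, adjusted p = 0.54) and Usp17ld (1.70, adjusted p = 0.22) were not.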

How the results depend on the processing

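Usp17lc was called higher in TBP LOF under all 27 alternatives (log2 fold change 1.19 to 2.13, edgeR or DESeq2 adjusted p from 2.5e-05 to 0.017), 18 of which left out an embryo. The alternative with gene rows of the per-locus tables held the same values as the main fit, so it could not differ. Another was chosen after seeing the data. None changed how reads were split between Usp17lc and Usp17ld. With TMM and with DESeq2's size factors, 4 copies were called in place of 1, and 2 with no filter on low counts, where Tdpoz1 passed as well (edgeR adjusted p = 0.048). Usp17ld, called with TMM and with DESeq2's size factors, reached the limit for testing through its reads in TBP LOF, so its calls are no separate support. Those scalings gave 1.13 and 1.15 for the Usp17l sum, 0.058 and 0.076 for the Tdpoz sum and 0.13 and 0.14 for Tdpoz4, and DESeq2's size factors gave 0.015 for Tdpoz1. Of 18447 tested genes TMM called 2382 lower and 2437 higher, and DESeq2's size factors called 2375 lower and 2550 higher. With no filter 6092 of 28073 tested genes were lower and 460 higher. Leaving out single embryos gave -0.069 to 1.27 for Tdpoz3 and -0.58 to 1.31 for Tdpoz5.

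FOXJ3 called 2 genes, 4 with DESeq2, 4 with no filter, 1 with filterByExpr and 0 within either batch, with the mCherry-Trim21 level as a covariate, or in the replicate block and the same embryos without it (chosen after seeing the data). Leaving out embryos gave 1 to 4. Signs near 0 turned: ERCC scaling gave 0.043 for Usp17ld, 0.036 for Usp17le, 0.17 for Tdpoz2 and 0.068 for Tdpoz4. The Trim21 covariate gave 0.20, 0.83 and 0.18 for Usp17ld, Usp17le and Tdpoz2, and batch 2 gave 0.10 and 0.45 for Usp17ld and Usp17le. Batch 1 gave -0.13 for Tdpoz1, 0.51 for Tdpoz2 and 0.0020 for Tdpoz4. Tdpoz2 was at 0.0036 over all 30 embryos and 0.00042 with no batch term. Leaving out embryos gave -0.60 to 0.019 for Usp17le, -0.19 to 0.15 for Tdpoz2 and -0.028 to 0.92 for Tdpoz5.

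With ERCC scaling the difference of effects was 0.67 for the Usp17l sum, -1.02 for the Tdpoz sum and -0.80 for Tdpoz4, beside a median of -0.88 for all genes. The replicate block gave -1.13 for the Tdpoz sum in TBP LOF and called Tdpoz1 (-1.32, edgeR adjusted p = 4.3e-04) beside Usp17lc, where 4493 of 18702 tested genes were lower and 277 higher. The same embryos without the block (chosen after seeing the data) gave 1 call among the copies, and none was lower. The pairing rests on a shared number only. Apart from the scalings, the cause of these changes was not tested. Tdpoz3, with 34 reads in the TBP experiment, had an SE of 0.98, and Usp17lb, with 6447, one of 0.35.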
